A study of Mus musculus with 6 samples.

Results

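Insulin-like growth factor 1, its receptor and 6 binding proteins were followed in the cerebral cortex of mice whose grandsires had received methylphenidate or saline. The 8 genes (Igf1, Igf1r and Igfbp2 to Igfbp7) were taken by symbol from a count table of 33274 gene rows, and each symbol had 1 row. The set was chosen by the lineage difference of Igfbp4 in these same libraries, so the lineage differences of the 8 genes are given as a description. All 8 passed the filter on low counts.

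The mice were 6-week-old wild type females of the outbred ICR stock. In the methylphenidate lineage the F0 grandsires had received methylphenidate, a blocker of dopamine and noradrenaline reuptake, at 15 mg/kg under the skin on 21 days in a row. In the saline lineage they had received saline at 10 mL/kg in the same way. F0 males and then F1 males were mated with untreated females, so no animal whose cortex was sequenced had itself been dosed, and F1 and F2 animals of both lineages had untreated dams. Each lineage had 3 libraries of 1 sample each, and the labels give neither the litters nor the sires that samples shared, and p-values therefore reflect the spread among these samples alone. The 6 libraries held 23896752 to 28120640 counts. Levels are given as CPM (counts per 1000000, with library sizes scaled by TMM). Excitatory neuron markers summed to 6690 to 7012 CPM in the methylphenidate lineage and 6908 to 7142 CPM in the saline lineage. No other tissue was compared, so this sum cannot tell cortex from regions next to it. The libraries also differed in markers of tissue next to the cortex. Choroid plexus markers summed to 26.8 to 518.9 CPM in the methylphenidate lineage and 46.5 to 684.4 CPM in the saline lineage, while striatal markers summed to 356.4 to 848.5 CPM in the methylphenidate lineage and 259.1 to 360.2 CPM in the saline lineage.

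IGF1 is a secreted hormone that acts through IGF1R, a receptor tyrosine kinase, to drive the PI3K-AKT-mTOR and RAS-MAPK cascades. In the brain it is made locally as well as delivered by blood, and it promotes neuronal growth, survival and myelination. The binding proteins hold IGFs outside the cell. They block or prolong IGF action, and proteases release the bound hormone. IGFBP4 is known mainly as an inhibitor of IGF action that the protease PAPP-A cleaves.

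The promoters of Igfbp4, the member with the largest lineage difference, and of Igfbp5, the member with the most counts, are shown to place the transcripts in the genome. They are the 250 bases before the start of each gene in RefSeq (GRCm38.p6, an older build than the GRCm39 of the counts). Igfbp4 lies at chr11:99040994-99041243 on the plus strand and Igfbp5 at chr1:72874866-72875115 on the minus strand. Capitals mark TATAAA, searched on both strands.
Igfbp4: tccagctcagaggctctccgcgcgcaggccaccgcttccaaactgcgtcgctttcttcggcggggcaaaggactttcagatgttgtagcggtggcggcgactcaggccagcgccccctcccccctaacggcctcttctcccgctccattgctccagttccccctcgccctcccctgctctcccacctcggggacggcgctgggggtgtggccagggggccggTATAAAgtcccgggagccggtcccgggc
Igfbp5: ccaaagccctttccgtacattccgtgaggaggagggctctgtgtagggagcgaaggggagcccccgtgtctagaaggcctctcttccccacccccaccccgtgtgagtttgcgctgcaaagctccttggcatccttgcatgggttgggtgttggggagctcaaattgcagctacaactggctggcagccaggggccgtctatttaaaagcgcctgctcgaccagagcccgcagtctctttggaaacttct
The Igfbp4 window held 1 TATAAA, whose first base lay 28 bases before the gene start. All 8 members had a promoter in the table, in 9 windows since Igfbp2 had 2, and TATAAA was in 2 of them, those of Igfbp4 and Igfbp6. Of all 32851 windows of this length, 12.4% held it. GGGCGG, the GC box, was absent from the windows of Igfbp4 and Igfbp5 and present in 3 of the 9, where 32.7% of all windows held it on either strand. The match is a description of the letters, not of binding.

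Igfbp4 (ENSMUSG00000017493) lay at 46.6, 41.9 and 40.2 CPM in methylphenidate replicates 1 to 3, against 59.9, 63.5 and 72.8 CPM in saline replicates 1 to 3. All methylphenidate libraries lay below all saline libraries. The means were 42.9 ± 3.3 CPM in the methylphenidate lineage and 65.4 ± 6.6 CPM in the saline lineage (SD, n = 3 each), a ratio of 0.656. The log2 fold change (methylphenidate minus saline) was -0.61 (SE 0.10). These values rest on 975 to 1190 counts per methylphenidate library and 1572 to 1758 per saline library. In edgeR's quasi-likelihood fit over 18327 genes Igfbp4 stood behind 15 genes in order of p and did not pass the threshold of 0.05 (adjusted p = 0.111). DESeq2, which called 151 of 18322 genes (0.824%), called it (DESeq2 adjusted p = 1.48e-05). The call thus depends on the tool. Without any one library the log2 fold change ranged from -0.67 to -0.53, with edgeR adjusted p of 0.0924 to 0.469.

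**Figure D1:**
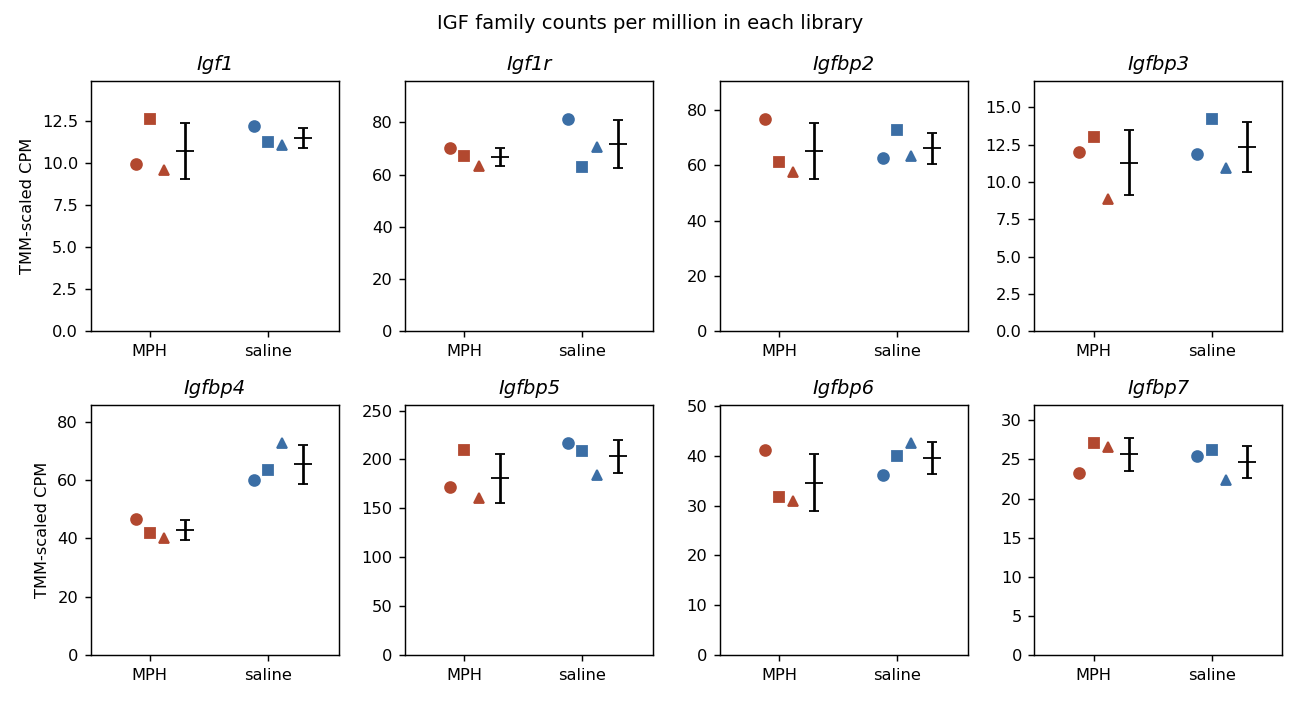
TMM-scaled CPM of the 8 IGF genes in each library of the methylphenidate (MPH, red) and saline (blue) lineages, each axis starting at 0. Circles, squares and triangles are replicates 1, 2 and 3, which were not taken to pair libraries across lineages, and the bars are the mean and SD of 3 libraries. Igfbp4 alone has groups that do not overlap.

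Igf1, the ligand, lay at 9.91, 12.6 and 9.56 CPM in methylphenidate replicates 1 to 3, against 12.2, 11.2 and 11.1 CPM in saline replicates 1 to 3. The highest library and the 2 lowest were all of the methylphenidate lineage, so the groups overlapped. On the log2 scale the lineages differed by -0.10 (SE 0.15; edgeR adjusted p = 0.920).

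Igf1r, the signalling receptor, lay at 70.1, 67.2 and 63.3 CPM in methylphenidate replicates 1 to 3, against 81.2, 63.0 and 70.6 CPM in saline replicates 1 to 3. Saline replicates 1 and 2 were the extremes of all 6 libraries. The difference on the log2 scale was -0.10 (SE 0.10; edgeR adjusted p = 0.872).

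Igfbp5, a binding protein that also attaches to extracellular matrix, had the most counts of the family. It lay at 171.4, 209.3 and 161.0 CPM in methylphenidate replicates 1 to 3, against 216.9, 208.8 and 184.4 CPM in saline replicates 1 to 3. Methylphenidate replicates 1 and 3 lay below every saline library and replicate 2 among them. The log2 fold change was -0.17 (SE 0.10; edgeR adjusted p = 0.760).

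Igfbp6, which prefers IGF2 over IGF1, lay at 41.2, 31.7 and 31.0 CPM in methylphenidate replicates 1 to 3, against 36.3, 40.0 and 42.6 CPM in saline replicates 1 to 3. Here methylphenidate replicates 2 and 3 lay below the saline libraries and replicate 1 among them. Its log2 fold change was -0.19 (SE 0.12; edgeR adjusted p = 0.773), the largest in size after that of Igfbp4.

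Igfbp2 lay at 76.6, 61.3 and 57.7 CPM in methylphenidate replicates 1 to 3, against 62.4, 72.5 and 63.3 CPM in saline replicates 1 to 3. The highest and the lowest library were both of the methylphenidate lineage, and the log2 fold change was -0.02 (SE 0.11; edgeR adjusted p = 0.981). Igfbp3, the main IGF carrier of blood, lay at 12.0, 13.0 and 8.82 CPM in methylphenidate replicates 1 to 3, against 11.9, 14.2 and 10.9 CPM in saline replicates 1 to 3. Methylphenidate replicate 3 stood below the rest. Its log2 fold change was -0.13 (SE 0.17; edgeR adjusted p = 0.912).

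Igfbp7, a low-affinity relative that blood vessel cells are known to make, lay at 23.3, 27.1 and 26.6 CPM in methylphenidate replicates 1 to 3, against 25.4, 26.2 and 22.4 CPM in saline replicates 1 to 3. The groups overlapped, and the log2 fold change was 0.05 (SE 0.10; edgeR adjusted p = 0.942). In GENCODE M21 the gene overlaps Polr2b on the opposite strand, which had up to 1590 counts in a library. The kit was directional, but no source used here says whether counting used strand, so Igfbp7 is uncertain to that extent.

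Set against its family, Igfbp4 was the member with the largest difference. None of the 8 genes passed the edgeR threshold, where 5 of 18327 genes tested (0.0273%) did. The lineages did not overlap in 1 of the 8, Igfbp4, where they did not overlap in 13.5% of all genes tested. The log2 fold change was below 0 in 7 of the 8, beside 9115 of all 18327 genes tested. Its median was -0.11 in the 8, beside 0.00 over all genes tested. Igfbp4, by whose difference the set was chosen, is counted in each of these values. Across the 5 binding proteins other than Igfbp4 the log2 fold change ran from -0.19 to 0.05, with a median of -0.13. Their summed level was 317.3 ± 29.4 CPM in the methylphenidate lineage and 346.1 ± 19.9 CPM in the saline lineage (SD, n = 3 each), and the libraries overlapped. The mean of their centred log2 CPM was 0.03, 0.02 and -0.20 in methylphenidate replicates 1 to 3. In saline replicates 1 to 3 it was 0.03, 0.15 and -0.03. Methylphenidate replicate 3 thus lay below the saline range, and methylphenidate replicates 1 and 2 lay within it.

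The share of Igfbp4 in the summed counts of the 6 binding proteins needs no scaling between libraries. It was 12.6, 10.9 and 12.4% in methylphenidate replicates 1 to 3 and 14.5, 14.9 and 18.4% in saline replicates 1 to 3. The exact (Clopper-Pearson) 95% intervals, which cover counting error only, reached at most 13.3% in a methylphenidate library and began no lower than 13.9% in a saline library. The mean share was 11.9 ± 0.9% in the methylphenidate lineage and 15.9 ± 2.1% in the saline lineage, a difference of -4.0 percentage points. Igfbp5 took 46.2 to 54.5% in the methylphenidate lineage and 46.5 to 52.5% in the saline lineage, so the ranges of the most counted member overlapped.

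**Figure D2:**
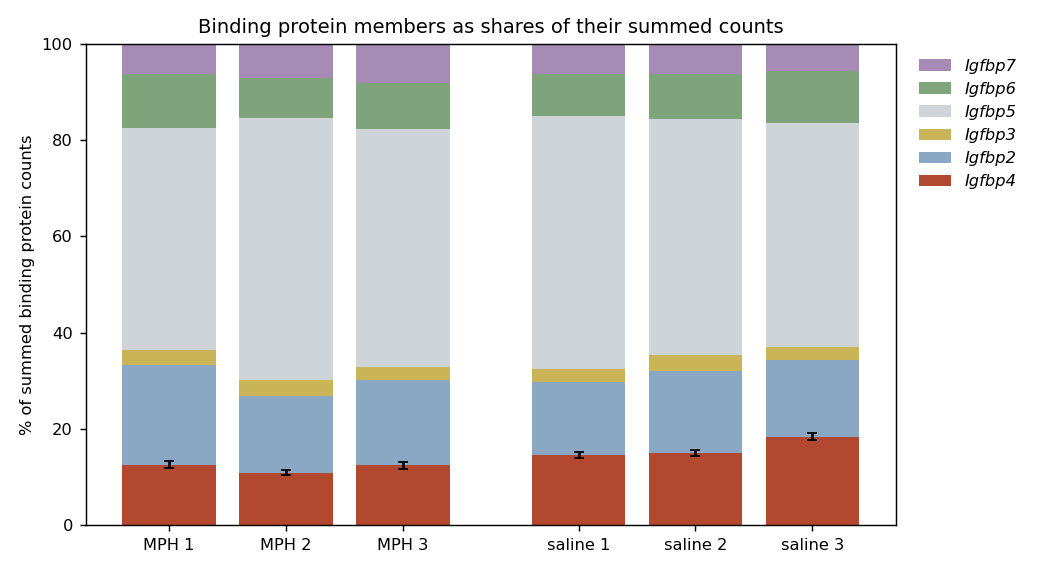
Shares of the 6 binding proteins in their summed counts, in percent, in each methylphenidate (MPH) and saline library, with the exact 95% interval of the Igfbp4 share. The Igfbp4 block at the base covers 10.9 to 12.6% in the methylphenidate libraries and 14.5 to 18.4% in the saline libraries.

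Levels were compared between genes per length, as CPM per kilobase of merged exons in GENCODE M21. Igfbp2 averaged 35.3 ± 5.4 in the methylphenidate lineage and 35.8 ± 3.0 in the saline lineage (CPM per kilobase; SD, n = 3 each). Igfbp6, at 31.2 ± 5.1 in the methylphenidate lineage and 35.6 ± 2.9 in the saline lineage, and Igfbp5, at 30.1 ± 4.2 in the methylphenidate lineage and 33.9 ± 2.8 in the saline lineage, did not differ from it beyond their spread over the 6 libraries. Igfbp7 followed at 21.2 ± 1.7 in the methylphenidate lineage and 20.4 ± 1.7 in the saline lineage, below those 3 in every library. Igfbp4 came next at 9.71 ± 0.75 in the methylphenidate lineage and 14.8 ± 1.5 in the saline lineage, below Igfbp7 in every library. Igf1r, at 3.98 ± 0.20 in the methylphenidate lineage and 4.26 ± 0.55 in the saline lineage, overlapped with Igfbp3, at 3.60 ± 0.70 in the methylphenidate lineage and 3.94 ± 0.54 in the saline lineage. Igf1 was the lowest at 1.08 ± 0.17 in the methylphenidate lineage and 1.16 ± 0.06 in the saline lineage. The ligand transcript was thus scarcer per length than its receptor and all 6 binding proteins in every library. Igf1 has 9904 bases of merged exons and Igf1r 16791, and exons that cortex does not use would lower such a value.

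**Figure D3:**
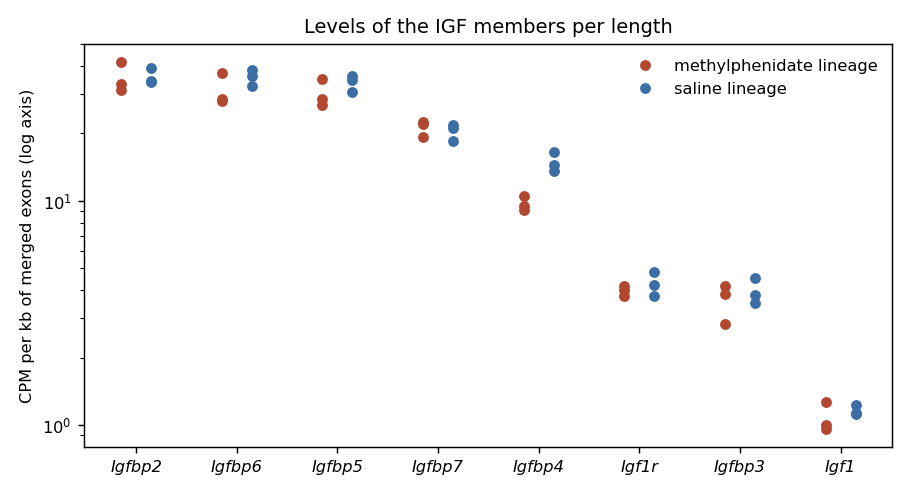
Levels of the 8 genes in CPM per kilobase of merged exons on a log axis, 1 point per library, with the methylphenidate lineage (red) to the left of the saline lineage (blue) for each gene. Igfbp2, Igfbp6 and Igfbp5 share the top and Igf1 lies lowest, and Igfbp4 is the gene whose lineages stand apart.

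The 5 genes nearest to Igfbp4 in their pattern over the 6 libraries were Il17ra, Ccser1, Dusp5, Vcpkmt and Dnajc21, among 10418 genes with a mean of at least 10 CPM. Likeness was the root-mean-square difference of centred log2 CPM, which was 0.10 for Il17ra and 0.13 for Dnajc21. Il17ra, a cytokine receptor gene, lay at 20.6, 19.6 and 18.3 CPM in methylphenidate replicates 1 to 3, against 25.1, 25.6 and 28.3 CPM in saline replicates 1 to 3. It was picked for this likeness, so the separation of its lineages follows from the choice. The nearest member of the family was Igfbp6 at 0.22, whereas the 5 genes named are the closest of 10418.

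Cells cannot be assigned from whole tissue, in which fewer cells of a type and less RNA per cell cannot be told apart. Marker lists of 16 cell types and regions were therefore set beside the members, library by library. Summed levels, which the most abundant markers dominate, overlapped between the lineages in 13 lists and not in the other 3. Upper cortical layer markers summed to 526.1 to 595.8 CPM in the methylphenidate lineage and 601.4 to 610.1 CPM in the saline lineage. Oligodendrocyte precursor markers summed to 274.5 to 285.8 CPM in the methylphenidate lineage and 209.2 to 253.5 CPM in the saline lineage. Hypothalamic and basal forebrain markers summed to 10.5 to 36.0 CPM in the methylphenidate lineage and 4.03 to 5.49 CPM in the saline lineage. Of the 36.0 CPM, in methylphenidate replicate 3, Pomc alone gave 19.4, against 1.58 and 1.93 CPM in methylphenidate replicates 1 and 2. No marker with a row was at 0 in all 6 libraries. By the mean of centred log2 CPM, which weights markers equally, 6 of the 16 lists did not overlap. The striatal, hypothalamic and basal forebrain, oligodendrocyte precursor, microglial and ependymal lists were higher in every methylphenidate library, and the excitatory neuron list was lower in each, while the upper layer list overlapped. The microglial gap was narrow, with a lowest methylphenidate mean of -0.048 and a highest saline mean of -0.056. In the ependymal list Tmem212 and Dynlrb2 had at most 27 and 24 counts in a library. Excitatory neuron means ran from -0.19 to 0.02 in the methylphenidate lineage and from 0.06 to 0.15 in the saline lineage. Several lists thus separate the lineages as Igfbp4 does, by one measure or both, and their part in its difference was not tested.

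Striatal markers summed to 635.1, 356.4 and 848.5 CPM in methylphenidate replicates 1 to 3, against 259.1 to 360.2 CPM in the saline lineage. All 12 tested members had log2 fold changes above 0, with a median of 1.07. None passed the threshold, and 10 of the 12 had an unadjusted p under 0.05, beside 7.51% of all genes tested. Methylphenidate replicate 2 lay within the saline range in summed CPM, but its list mean of -0.04 was above those of all saline libraries, which ran from -1.01 to -0.19. With replicates 1 and 3 left out together, a choice made after the data were seen, the log2 fold change of Igfbp4 was -0.64 (SE 0.14; edgeR adjusted p = 0.429), the lone library being assumed to vary like the saline ones. That of Igfbp5 was then 0.04 (SE 0.11), against -0.17 with all libraries. With the striatal list mean as a covariate, the lineage term was -0.47 for Igfbp4 (SE 0.18; edgeR adjusted p = 0.997) and 0.01 for Igfbp5 (SE 0.17). The SE of Igfbp4 was 0.10 without the covariate. This list mean did not overlap between the lineages, so the fit separates the list from the lineage only with little precision.

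Markers of blood vessels overlapped between the lineages as sums and as list means, but not each marker did. Of 9 endothelial markers, Cldn5 was higher and Flt1 lower in every methylphenidate library than in any saline library. Of 9 mural markers, 2 were lower in this way and 0 higher. Among all genes tested 13.5% did not overlap. Endothelial markers summed to 402.4 to 445.0 CPM in the methylphenidate lineage and 429.2 to 461.4 CPM in the saline lineage, and 0 of 9 markers passed the threshold. Mural cell markers summed to 234.9 to 239.2 CPM in the methylphenidate lineage and 235.6 to 277.4 CPM in the saline lineage. Again 0 of 9 passed, where 0.0273% of all genes tested did. With the endothelial list mean as a covariate the log2 fold change of Igfbp4 was -0.62 (SE 0.10; edgeR adjusted p = 0.112), and with the fibroblast list mean it was -0.60 (SE 0.10; edgeR adjusted p = 0.145). Both list means overlapped between the lineages, and the cell source of the Igfbp4 difference was not tested. The excitatory neuron and upper layer lists were not used as covariates.

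Igfbp2 and Igfbp3 were compared with the linings of the brain. Choroid plexus markers summed to 518.9, 211.7 and 26.8 CPM in methylphenidate replicates 1 to 3 and 46.5, 684.4 and 437.6 CPM in saline replicates 1 to 3. The 2 libraries with the most choroid plexus signal, saline replicate 2 and methylphenidate replicate 1, were also the 2 highest for Igfbp2, at 72.5 and 76.6 CPM, and methylphenidate replicate 3 was lowest in both. Meningeal and perivascular fibroblast markers summed to 106.0, 141.7 and 82.9 CPM in methylphenidate replicates 1 to 3 and 108.0, 121.4 and 107.1 CPM in saline replicates 1 to 3. Igfbp3 was highest in saline replicate 2 and methylphenidate replicate 2 and lowest in methylphenidate replicate 3, the same libraries as that list, in another order at the top. Whether choroid plexus or meninges set these levels was not tested.

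**Figure D4:**
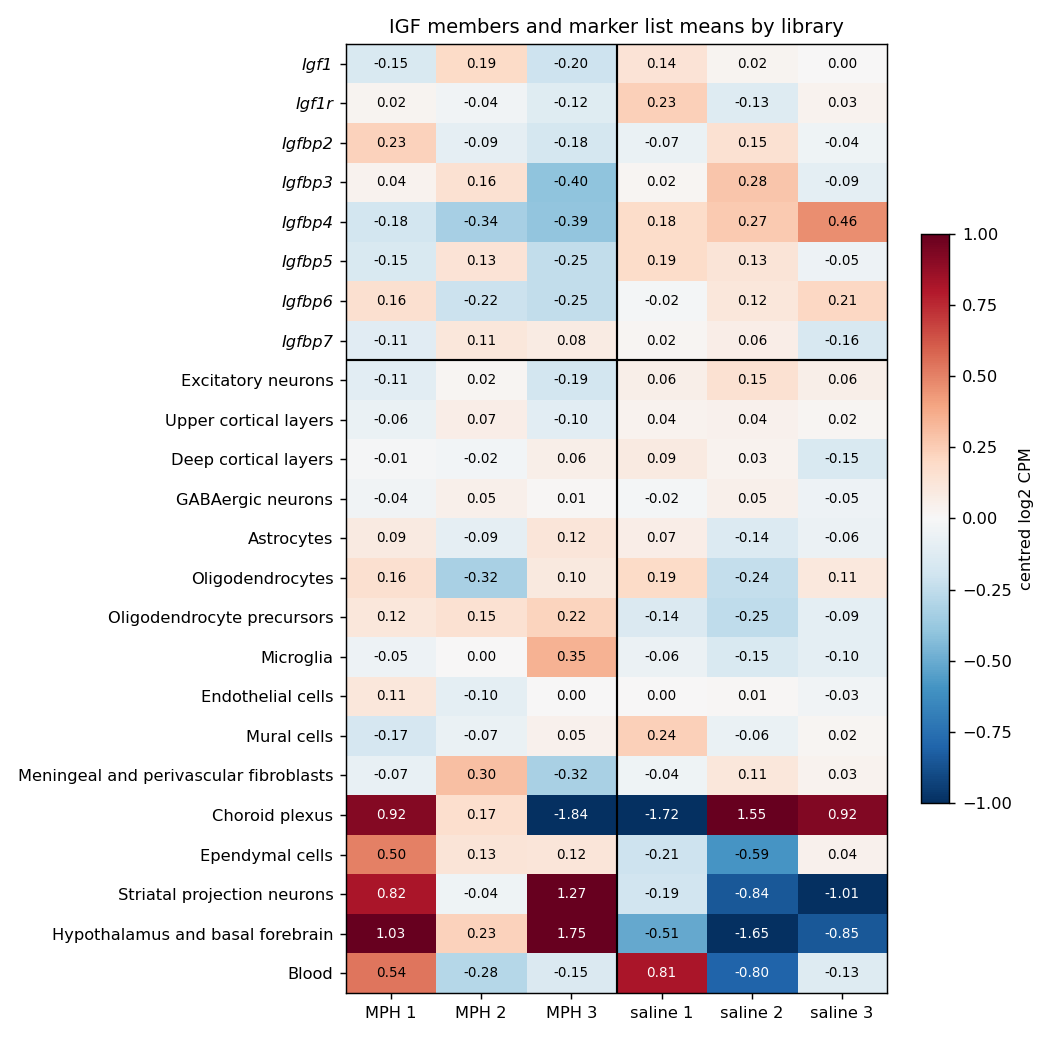
Centred log2 CPM of the 8 IGF genes (top) and of the means of 16 marker lists (below) in the methylphenidate (MPH) and saline libraries, with colours ending at -1 and 1. Igfbp4 runs from -0.39 to -0.18 in the methylphenidate libraries and from 0.18 to 0.46 in the saline libraries, while the choroid plexus list runs from -1.84 to 1.55 without following lineage.

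Outside the family, 67 genes of the pathway were listed, of which 65 had a row and 63 were tested. None passed the threshold in either direction, beside 0.0273% of all genes. Of the 63, 29 had log2 fold changes above 0 and 34 below, with a median of -0.01. At an unadjusted p under 0.05 there were 9, 5 above 0 and 4 below, or 14.3% beside 7.51% of all genes tested. The lineages did not overlap in 6 genes that were higher and 7 that were lower, beside 13.5% of all genes tested. DESeq2 called 1 of the 63, Foxo1, beside 0.824% of all genes it tested.

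Among ligands, other receptors and extracellular regulators 10 of 14 listed genes were tested, and 0 passed. Igf2, the second IGF, which choroid plexus and meninges are known to make, lay at 108.1, 96.2 and 59.8 CPM in methylphenidate replicates 1 to 3, against 65.0, 116.2 and 91.0 CPM in saline replicates 1 to 3. Its lowest libraries, methylphenidate replicate 3 and saline replicate 1, were also the lowest in choroid plexus markers. The insulin receptor gene Insr averaged 54.2 ± 3.5 CPM in the methylphenidate lineage and 55.7 ± 1.6 CPM in the saline lineage (SD, n = 3 each). Pappa, the protease that cleaves IGFBP4, had 12, 13 and 5 counts in methylphenidate replicates 1 to 3 and 12, 23 and 26 in saline replicates 1 to 3, so little can be said of it at this depth (log2 fold change -1.05, SE 0.53; edgeR adjusted p = 0.711).

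Pappa2, a relative that cleaves IGFBP3 and IGFBP5, lay at 3.28, 1.86 and 4.16 CPM in methylphenidate replicates 1 to 3, against 0.686, 1.80 and 1.82 CPM in saline replicates 1 to 3 (log2 fold change 1.11, SE 0.43; edgeR adjusted p = 0.606). The methylphenidate library with the most Pappa2, replicate 3, also had the largest striatal sum. In the saline lineage, replicate 1 had the largest striatal sum, 360.2 CPM, and the least Pappa2. A link between them was not tested. Stc1, which encodes an inhibitor of PAPP-A, differed by 0.35 on the log2 scale (SE 0.21; edgeR adjusted p = 0.760). Its relative Stc2 differed by -0.45 (SE 0.40; edgeR adjusted p = 0.861).

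Of 12 receptor adaptors and brakes 0 passed. Irs4, an adaptor, had 14, 53 and 16 counts in methylphenidate replicates 1 to 3 and 8, 10 and 6 in saline replicates 1 to 3 (log2 fold change 1.71, SE 0.57; edgeR adjusted p = 0.555). Methylphenidate replicate 2 had more counts than any other library. Sos1, which loads RAS with GTP, differed by -0.21 on the log2 scale (SE 0.09; edgeR adjusted p = 0.630). Irs1, an adaptor with more counts, averaged 21.0 ± 3.8 CPM in the methylphenidate lineage and 21.0 ± 2.7 CPM in the saline lineage (SD, n = 3 each).

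The PI3K and AKT arm had 18 genes tested and 0 past the threshold. Foxo1, a transcription factor that AKT keeps out of the nucleus, lay at 23.8, 26.4 and 28.4 CPM in methylphenidate replicates 1 to 3, against 19.9, 15.6 and 17.1 CPM in saline replicates 1 to 3. The groups did not overlap, and the log2 fold change was 0.58 (SE 0.12; edgeR adjusted p = 0.220, DESeq2 adjusted p = 0.00988). In 3 other genes of this arm the groups did not overlap either, with the methylphenidate lineage lower. Foxo3, of the same family, differed by -0.20 on the log2 scale (SE 0.09; edgeR adjusted p = 0.680). The PI3K subunit gene Pik3r1 differed by -0.15 (SE 0.06; edgeR adjusted p = 0.630).

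Of 14 genes of the mTOR arm 0 passed, and Deptor, an inhibitor of mTOR, differed by -0.33 on the log2 scale (SE 0.12; edgeR adjusted p = 0.606). Of 9 genes of the RAS and MAPK arm 0 passed. Mapk3, which encodes ERK1, lay at 108.1, 127.0 and 143.5 CPM in methylphenidate replicates 1 to 3, against 108.9, 92.1 and 96.3 CPM in saline replicates 1 to 3. Methylphenidate replicate 1 lay within the saline range (log2 fold change 0.35, SE 0.11; edgeR adjusted p = 0.494). Map2k2, which encodes a kinase above it, differed by 0.21 on the log2 scale (SE 0.09; edgeR adjusted p = 0.636).

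**Figure D5:**
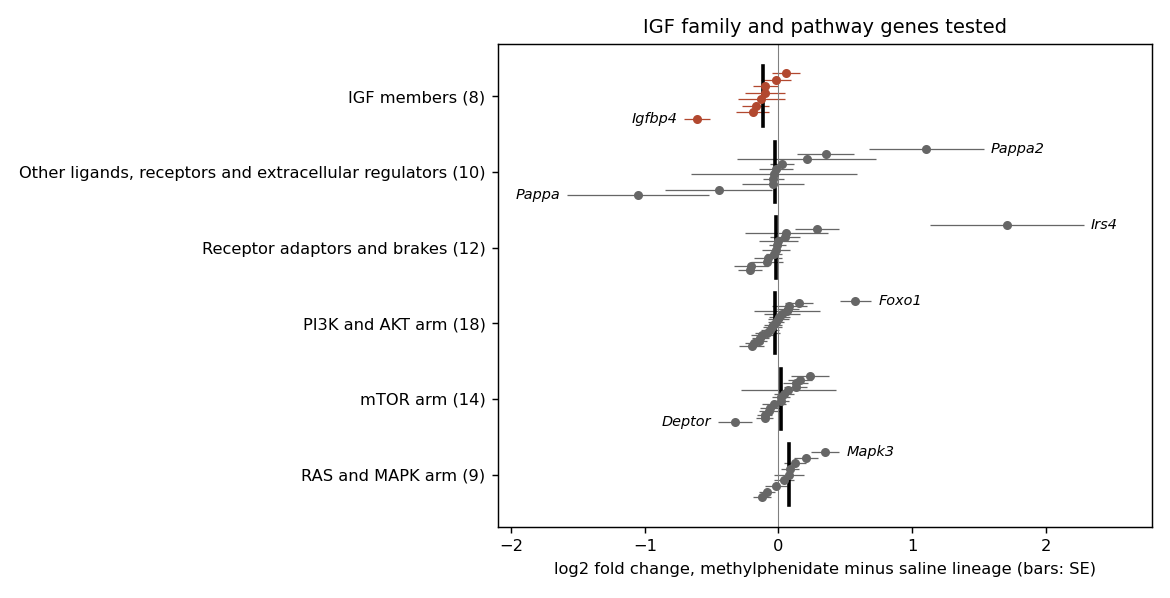
Log2 fold changes, methylphenidate minus saline lineage, of the 8 IGF genes (red) and 63 tested pathway genes (grey) with SE bars, by list, with the number tested in brackets and each list's median as a black line. List medians lie between -0.11 and 0.08, and Igfbp4 stands at -0.61.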

How the data were processed

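Poly(A) RNA of cerebral cortex was sequenced from directional libraries, per the labels' protocols. Tools named by the submitters' processing notes, without roles, were HISAT2 2.2.1, StringTie 2.2.1, fastp 0.23.4 and bcl2fastq 2.19, with the build GRCm39. The sources used here give neither the annotation release nor how genes were counted. The authors deposited raw integer counts, 1 column per library and 1 row per gene, and 985 of 33274 rows had no symbol.

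Groups came from the sample titles. Counts were fitted in R 4.3.3 with edgeR 4.0.16 (filterByExpr, TMM, glmQLFit and glmQLFTest, group as the only term, two-sided, Benjamini-Hochberg over 18327 genes, threshold 0.05), and each standard error was derived from the F statistic. CPM used TMM-scaled library sizes, and centred log2 CPM a prior count of 2. Alternatives were DESeq2 1.42.0, limma-voom (limma 3.58.1), other scalings and filters, a replicate block, marker list covariates and leaving out libraries. The fit was tested on simulated data. No library duplicated another of its lineage (chi-square of counts per degree of freedom 13.0 to 19.9 over genes with at least 20 counts).

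The members, lists and alternatives were chosen with earlier results of these data known. Named genes are the 8 members, up to 4 tested genes of smallest p in each pathway list, the 5 nearest to Igfbp4, and marker lists. Insr, Igf2, Irs1 and Foxo3 were added after their values were seen, and Polr2b for its overlap with Igfbp7. A gene that the rule takes is not reported here.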

Additional observations from a re-analysis of the deposited data

How the results depend on the processing

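The log2 fold change of Igfbp4 was below 0 in all 19 alternatives, between -0.67 and -0.47, and DESeq2 alone put it past the threshold (-0.61, DESeq2 adjusted p = 1.48e-05). Without any one library it ranged from -0.67 to -0.53. Genes past the threshold numbered 5, against 10 with total counts, 3 with no filter, 151 with DESeq2 and 2 with a replicate block, and their number ranged from 2 to 26 without any one library. Without methylphenidate replicates 1, 2 and 3 it was 26, 12 and 2, and without saline replicates 2 and 3 it was 3 and 8. The median of the pathway lists ranged from -0.029 to 0.00029 without any one library, and 1 pathway gene passed with DESeq2. The difference in the Igfbp4 share, -4.0 percentage points, was -7.51 when Igfbp5 was left out of the sum, as a smaller sum must make it, and ranged from -4.71 to -2.79 without any one library.

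Signs of the small differences turned. Without any one library Igfbp2 ranged from -0.15 to 0.059, Igfbp3 from -0.25 to 0.019, Igf1r from -0.18 to 0.0012 and Igfbp7 from -0.011 to 0.12. With the striatal list mean as a covariate Igf1, Igfbp2, Igfbp3 and Igfbp5 had log2 fold changes of 0.12, 0.031, 0.23 and 0.012. That fit separates the list from the lineage only with little precision. Without methylphenidate replicates 1 and 3 together Igf1, Igfbp3 and Igfbp5 had 0.13, 0.078 and 0.042. The cause was not tested. Of 152 recomputed member values, 138 kept their sign and their side of the threshold.

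Replicate numbers were not taken to pair the libraries. Deviations from the lineage means correlated at -0.04, 0.09 and -0.02 between same-numbered libraries. Between the other pairs they ran from -0.11 to 0.13. With 3 libraries per lineage this check cannot settle whether libraries shared a batch. With the replicate block Igfbp4 differed by -0.61 on the log2 scale (SE 0.10; edgeR adjusted p = 0.225). Standard errors had a median of 0.15 over all genes tested, and each of the other 7 members differed by less than 2 of its own standard errors.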
